A study of Mus musculus with 4 samples.

Results

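The regions described here are CTCF binding summits at the starts of protein-coding genes, mostly genes with no protein-coding neighbour starting close by in the other direction. A summit, the position of highest signal within a peak, was taken from the autosomes of the list of peaks that the submitters headed conservative. It was kept when it lay within 1000 bp of a protein-coding gene start in GENCODE M21 (mouse build mm10). Summits within 1000 bp of both starts of a divergent pair were left out, a pair being 2 protein-coding starts on opposite strands, at most 1000 bp apart, with the minus-strand start on the left. This gave 4147 summits of the 41000 on the autosomes and the 42163 in the whole list. They lay nearest to the starts of 3819 genes. For 22 summits the nearest start belonged to a divergent pair, and 199 (4.80%) lay within 1000 bp of more than 1 protein-coding start. Position and direction were read against the nearest start. Of the 20807 autosomal protein-coding starts, 1450 belonged to one of 735 divergent pairs and 19357 did not; the latter are called one-way starts. One-way refers to protein-coding genes only, since 412 of the 4147 summits (9.93%, 95% Wilson interval 9.06 to 10.9) also lay within 1000 bp of the start of a long noncoding RNA gene.

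CTCF was mapped by ChIP-seq (sequencing of the DNA that precipitates with an antibody against it) in calf muscle, the gastrocnemius, of female adult mice of strain B6CASTF1/J, aged 2 months. There were 4 libraries in 2 groups: pool E and pool F were each a pool of 2 gastrocnemius biosamples, and each pool gave 2 technical replicate libraries, of 200 to 600 bp fragments from frozen tissue. Both groups had the same strain, sex, age, tissue and antibody target, so no treatment or genotype was compared. The technical replicates of a pool had been merged before peaks were called. Whole muscle holds fibres together with vessel, nerve, connective tissue and immune cells, and peaks give no expression by which the tissue label could be checked.

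CTCF is a DNA-binding protein with a row of zinc fingers that reads a long, asymmetric DNA sequence, so a bound site has a direction. It stops cohesin, the ring complex that extrudes DNA loops, mostly when cohesin meets it from one side, and loops in mammalian genomes tend to be anchored by sites that point towards each other. At promoters CTCF is known to help bring distant enhancers close and to shield genes from neighbouring chromatin. Methylation of CpG dinucleotides within the site can block its binding, and many promoters lie in CpG-rich sequence that is usually unmethylated.

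A core was recorded where the 14-base CTCF core consensus fitted with at most 2 mismatches on either strand, with its centre at most 50 bp from the summit. Cores of strong summits at one-way starts are shown first, because strength, direction and fit to the consensus are the subject of the results. Each line holds 24 bases of the mm10 reference, read 5′ to 3′ on the strand of the core. Capitals mark the bases that fit the consensus and lower case marks the mismatches and the 5 flanking bases on each side.
Hoxa7: aaattCCAGgAGATGGCAGtgtgg
Gins4: attcgCCACaAGAcGGCGCtgcct
AI413582: ccgcggCAGCAGGGGGCGaccgag
Srp9: ccagcCCtGCAGGcGGCGCtgtgg
Tfeb: tgcgcCCgGCAGAGGGCAGcaccc
Hsp90aa1: gctgaCCAGCAGGTGGCGCtaaac
Srrm3: cgggaCCAGCAGGGGGCAGgcagg
Ext2: cctgtCCAGCAGGGGGCGCggcgc
The sites are at chr6:52221802-52221825 (minus strand) for Hoxa7, chr8:23237880-23237903 (minus) for Gins4, chr17:27565834-27565857 (plus) for AI413582, chr1:182124642-182124665 (plus) for Srp9 and chr17:47737020-47737043 (minus) for Tfeb. The last 3 are the strongest summits with no mismatch, at chr12:110703101-110703124 (minus), chr5:135806749-135806772 (minus) and chr2:93822586-93822609 (minus). The AI413582, Tfeb and Srrm3 cores point against their genes and the other 5 point the same way as theirs. The animals are a cross of strains, and these letters are those of the reference genome.

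The 3 strongest summits without a core are shown beside them with their best match, which had 3 mismatches in each case.
Erlin2: cggtggCgCCAGGGGaCGCtcgcg
Them6: cgccgtagCCAGGTGGCGCtgtac
Spata20: gctcggCgGTAGAGcGCGGaacta
They are at chr8:27023649-27023672 (minus), chr15:74720995-74721018 (plus) and chr11:94486233-94486256 (plus). In the Them6 sequence the 3 mismatches stand together at the first bases of the core and the rest of the core fits.

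The place and direction of the core relative to the start are shown in 4 stretches of 150 bases that end at the base before the annotated start, each read in the direction of its gene, with the core in capitals. They belong to the strongest summits with a core centred 100 to 20 bp upstream of the start and no annotated exon in the stretch.
Srp9: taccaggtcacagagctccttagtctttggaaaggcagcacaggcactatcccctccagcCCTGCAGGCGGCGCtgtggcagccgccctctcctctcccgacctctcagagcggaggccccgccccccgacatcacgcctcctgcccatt
Prmt3: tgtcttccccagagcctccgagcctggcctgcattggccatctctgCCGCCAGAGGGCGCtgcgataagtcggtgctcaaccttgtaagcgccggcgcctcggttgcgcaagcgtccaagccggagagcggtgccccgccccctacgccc
Psmd6: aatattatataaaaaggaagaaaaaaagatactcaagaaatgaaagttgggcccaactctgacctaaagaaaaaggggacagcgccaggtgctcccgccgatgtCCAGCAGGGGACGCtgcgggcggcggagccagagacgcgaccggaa
Nob1: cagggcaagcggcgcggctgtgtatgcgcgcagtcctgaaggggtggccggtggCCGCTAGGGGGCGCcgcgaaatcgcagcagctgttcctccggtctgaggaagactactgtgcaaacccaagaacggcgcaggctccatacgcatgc
The stretches are chr1:182124587-182124736 (plus), chr7:49778196-49778345 (plus), chr14:14120985-14121134 (minus) and chr8:107425052-107425201 (minus). The core centres lie at -83.5, -97.5, -39.5 and -89.5 bp from the start, negative values being upstream. All 4 cores read in the direction of the gene. AI413582, with a stronger summit at -89 bp and a core against the gene, is not among them because an exon of an antisense gene overlaps the stretch.

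Peak strength is the score that the submitters gave each peak, on a scale not given in the sources used here, so it serves to rank peaks. The files give no read counts, and the depth is unknown. Over the 4147 summits the strength ran from 11.99 to 672, with a median of 209 and quartiles of 103 and 419. The reproducibility test behind the list (irreproducible discovery rate, IDR) removed many of the strongest candidates as well as weak ones. Of the 14 one-way candidates among the 100 strongest autosomal candidates, 2 were in the list, and of the next 72, down to rank 500, 35 were. Between ranks 10000 and 20000, all 861 were in the list. Strongest therefore means strongest among the peaks that passed. There were 80 one-way candidates outside the list with a strength of at least 535.5, the start of the strongest 10% of the 4147, 8 of them stronger than the strongest, Hoxa7. The 3 strongest of these, named after their values were seen, were at Pkn3 (737), Sh3glb1 (730) and Nipsnap2 (719).

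One-way starts with a CTCF summit were a minority, and they were more frequent among CpG-rich starts. A summit lay within 1000 bp of 3968 of the 19357 one-way starts (20.5%, interval 19.9 to 21.1). Within the stronger 50% of the list the share was 9.74%. A start was called CpG-rich where the stretch from 200 bp before to 200 bp after it had over 50% GC and an observed-to-expected CpG ratio over 0.6. Of the 8916 CpG-rich starts, 2873 had a summit (32.2%, interval 31.3 to 33.2). Of the other 10441 starts, 1095 had one (10.5%, interval 9.91 to 11.1), a difference of 21.7 points (95% Newcombe interval 20.6 to 22.9). Starts in divergent pairs had a summit more often, 427 of 1450 (29.4%, interval 27.2 to 31.8). One-way minus paired starts was -8.95 points (interval -11.4 to -6.59). The groups were not matched for CpG content, so its part in this difference was not tested. Both starts of a pair can lie within 1000 bp of the same summit, so paired starts are not independent counts. All these intervals cover counting error only and take peaks and starts as independent, which neighbouring or paralogous genes are not. Among autosomes, chromosome 14 had the lowest share with a summit (15.9%), chromosome 18 the highest (27.4%), and the median was 21.1%.

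Most one-way starts with CTCF had 1 summit: 3623 had exactly 1, 332 had 2 and 13 had 3. Ap5b1, which encodes a subunit of an adaptor complex of late endosomes, had 3 summits of nearly equal strength, 576, 575 and 571, at -374, +348 and +973 bp. Slco3a1, an organic anion transporter gene, had 3 of 278, 309 and 284 at -854, -385 and +517 bp. Cebpd, a transcription factor of adipocyte differentiation and inflammation, had 3 that differed more, 406, 117 and 215 at -634, +336 and +845 bp. Negative distances are upstream of the start in the direction of the gene.

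Summits gathered just upstream of the start. Of the 4147, 2320 lay upstream (55.9%, interval 54.4 to 57.4), 1824 downstream (44.0%, interval 42.5 to 45.5) and 3 on the start. The median distance from the start was 235 bp and 1887 summits (45.5%) were within 200 bp. Bins of 100 bp, chosen after the data had been seen, held 470 summits from -200 to -100, 762 from -100 to 0, 398 from 0 to 100 and 254 from 100 to 200 bp. At the edge of the window, 209 summits lay 900 to 1000 bp from a start and 207 lay 1000 to 1100 bp from one. Their median strengths were 199 and 185, and their core shares 61.7% and 63.3%.

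**Figure D1:**
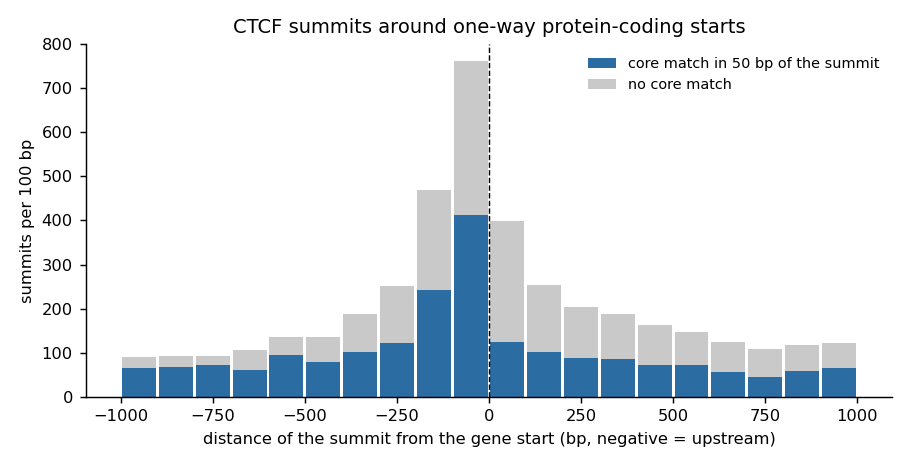
Number of CTCF summits (y axis) in bins of 100 bp by distance from the nearest protein-coding start (x axis, bp), split into summits with a core match (dark) and without one (light). The bin from -100 to 0 bp is the highest with 762 summits, 413 of them with a core, and the bin from 0 to 100 bp has 398, of which 124 have a core.

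Strength and fit to the consensus changed together across the start. The 762 summits in the 100 bp before the start had a median strength of 333 (quartiles 139 and 509) and a core in 54.2% (interval 50.6 to 57.7). The 398 in the 100 bp after the start had a median of 142 (quartiles 87.3 and 309) and a core in 31.2% (interval 26.8 to 35.9). The core share was 23.0 points higher before the start (interval 17.1 to 28.6). Summits with a core differed in strength as well, with a median of 455 before and 258 after the start. Among summits without a core the medians were 191 and 117. The quartile ranges of the bins on either side overlapped, and within the stronger 50% of the list the ratio of the medians was 1.32 in place of 2.34. CpG-rich summits made up 69.6% before and 84.9% after the start, and the part this has in the difference was not tested.

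By annotation, 2095 summits (50.5%) lay outside protein-coding transcripts, with a core in 57.4% (interval 55.2 to 59.5) and a median strength of 287. Introns held 925 (22.3%), with a core in 47.8% (interval 44.6 to 51.0) and a median of 162. In 5′ UTRs there were 781 (18.8%), of which 36.5% had a core (interval 33.2 to 39.9), at a median of 155. Coding exons held 318 (7.67%), with a core in 43.1% (interval 37.8 to 48.6) and a median of 135.

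Cores upstream of the start pointed mostly in the direction of the gene. Over all 2084 summits with a core, 1226 cores (58.8%, interval 56.7 to 60.9) lay on the strand that reads like the transcript. Upstream the share was 844 of 1314 (64.2%, interval 61.6 to 66.8). Downstream it was 380 of 768 (49.5%, interval 46.0 to 53.0), and the difference was 14.8 points (interval 10.4 to 19.1). In the 100 bp before the start it reached 302 of 413 (73.1%, interval 68.6 to 77.2). In the 100 bp after the start it was 73 of 124 (58.9%, interval 50.1 to 67.1), and from 100 to 200 bp after it the count was 41 of 102 (40.2%, interval 31.2 to 49.9). At a finer scale, cores centred 100 to 80, 80 to 60 and 60 to 40 bp upstream pointed with the gene in 69 of 89, 79 of 106 and 79 of 103 cases. Those in the last 20 bp before the start did so in 37 of 64, and those in the first 20 bp after it in 23 of 29.

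Intervals for direction overlapped across fit and base composition. Cores with 0, 1 and 2 mismatches pointed with the gene in 64.5% (interval 56.6 to 71.6), 59.9% (interval 56.2 to 63.4) and 57.5% (interval 54.7 to 60.3). CpG-rich summits had 60.8% (interval 57.9 to 63.7) and the others 56.8% (interval 53.7 to 59.8). By strength, cores of the weakest 10% of the 4147 pointed with the gene in 51.5% and those of the strongest 10% in 71.0%. The share of summits with a core was 23.4% in the weakest 10% and 80.7% in the strongest, and the share upstream of the start was 41.7% and 77.3%. Strength was not used to choose the summits beyond the list's own threshold.

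**Figure D2:**
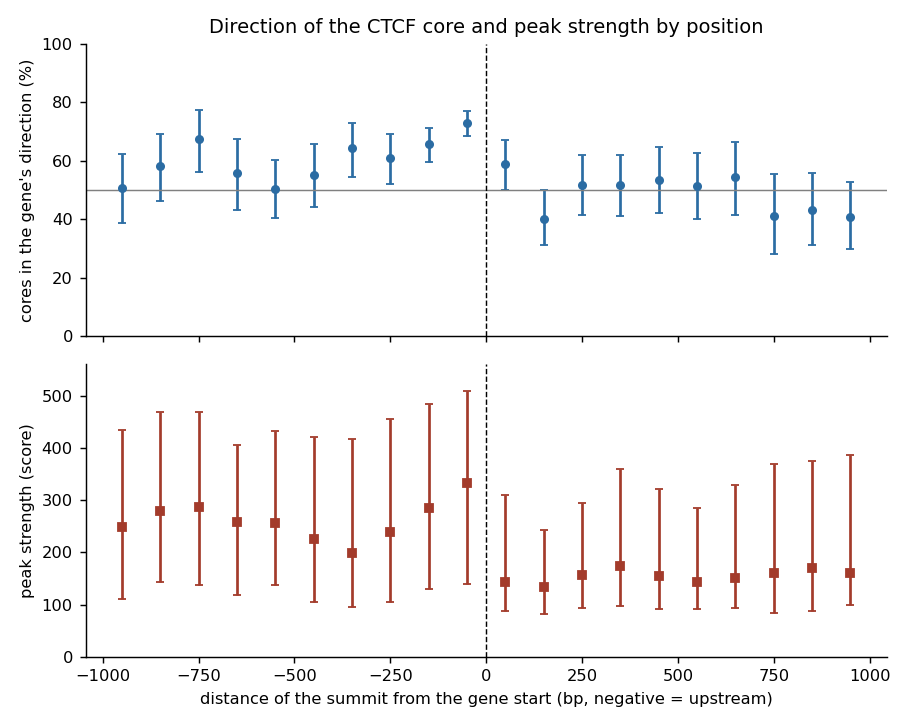
Upper panel, share of cores that point in the direction of the gene (%, points) with 95% Wilson intervals (bars) by summit distance from the start in 100 bp bins; lower panel, median strength (score, squares) with quartiles (bars). The bin from -100 to 0 bp is highest in both, at 73.1% and 333, and strength falls to 142 in the next bin.

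The sequence around all one-way starts was then searched for sites of the core consensus, so that sites without CTCF could be counted too. A site counted as occupied when a summit of the list lay within 50 bp of it. By this rule a site beside a better core counted too, and the share expected from the density of summits alone was not compared. Within 1000 bp of one-way starts, 151 of 184 sites with no mismatch were occupied (82.1%, interval 75.9 to 86.9). With 1 mismatch 712 of 1625 were occupied (43.8%, interval 41.4 to 46.2), and with 2 mismatches 1412 of 14041 (10.1%, interval 9.57 to 10.6). At sites more than 10000 bp from every gene start, the shares were 79.4% (interval 78.0 to 80.7), 22.3% (interval 21.9 to 22.8) and 2.76% (interval 2.71 to 2.83). Sites at one-way starts were thus occupied more often with 1 mismatch, by 21.5 points (interval 19.03 to 23.9), and with 2 mismatches, by 7.29 points (interval 6.80 to 7.80). With no mismatch the difference was 2.68 points (interval -3.63 to 7.73), which includes 0. Counting any ranked candidate in place of list summits gave 91.3% of sites with no mismatch at one-way starts and 87.1% of distal ones, a difference of 4.23 points (interval -0.836 to 7.70).

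Just upstream of the start, sites with 1 or 2 mismatches that pointed with the gene were occupied more often. In the 100 bp before the start, sites with 2 mismatches were occupied in 191 of 687 cases when they pointed with the gene (27.8%, interval 24.6 to 31.3). Against the gene it was 86 of 566 (15.2%, interval 12.5 to 18.4), a difference of 12.6 points (interval 8.07 to 17.02). With 1 mismatch the counts were 126 of 176 (71.6%, interval 64.5 to 77.7) and 45 of 82 (54.9%, interval 44.1 to 65.2), which differ by 16.7 points (interval 4.21 to 29.1). The letters themselves were also uneven there. Sites with no mismatch pointed with the gene in 38 of 47 cases (80.9%, interval 67.5 to 89.6), those with 1 mismatch in 176 of 258 (68.2%, interval 62.3 to 73.6) and those with 2 in 687 of 1253 (54.8%, interval 52.1 to 57.6). In the 100 bp after the start, sites with 2 mismatches pointed with the gene in 511 of 1013 (50.4%, interval 47.4 to 53.5), and they were occupied more often by 3.78 points (interval 0.160 to 7.43) when they did. With 1 mismatch the difference after the start was 15.4 points (interval -4.77 to 33.7), which includes 0, and whether the differences before and after the start differ was not tested. With any ranked candidate as the criterion, the differences before the start were 19.5 points (interval 8.17 to 31.2) for 1 mismatch and 11.2 points (interval 6.10 to 16.3) for 2. With no mismatch, 31 of 38 sites were occupied in the direction of the gene and 8 of 9 against it.

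**Figure D3:**
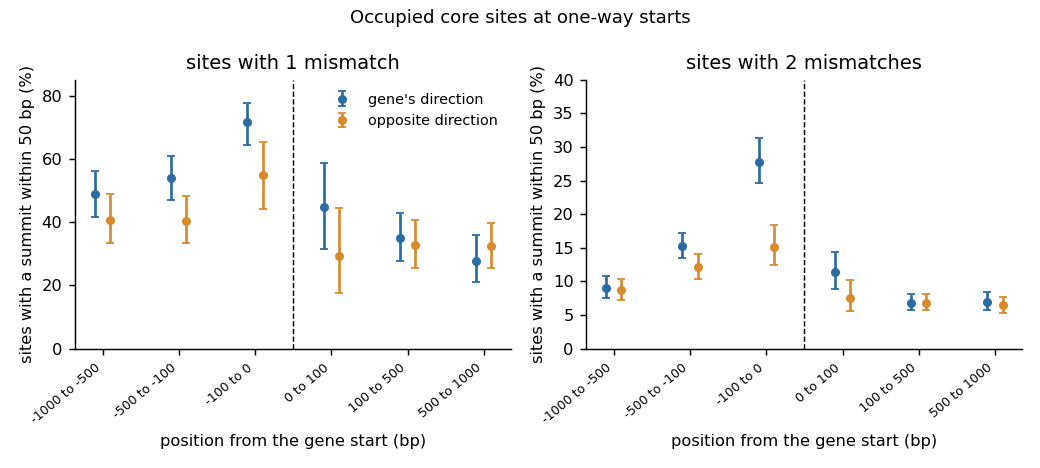
Share of core sites with a summit within 50 bp (%, points, with 95% Wilson intervals as bars) by position from the start (x axis, bp), for sites with 1 mismatch (left) and 2 mismatches (right) that point with the gene (blue) or against it (orange). Sites from -100 to 0 bp stand highest in both panels, with 71.6% against 54.9% and 27.8% against 15.2%.

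Summits at one-way starts had fewer cores and more CpG than distal summits and those at noncoding starts, and more cores and less CpG than those of divergent pairs. A core was present in 50.3% (2084 of 4147, interval 48.7 to 51.8). It was present in 37.8% of the 217 summits of divergent pairs (interval 31.6 to 44.4), 69.2% of the 743 at noncoding starts (interval 65.8 to 72.4) and 81.6% of the 21297 distal summits, more than 10000 bp from any gene start (interval 81.1 to 82.1). Divergent minus one-way was -12.5 points (interval -18.8 to -5.68) and distal minus one-way was 31.4 points (interval 29.8 to 32.97). Divergent minus one-way was -6.35 points (interval -18.2 to 4.27) in the stronger 50% of the list. With at most 1 or at most 3 mismatches allowed, the one-way share was 20.6% and 83.8%. The core share was lower than in distal summits on all 19 autosomes. Windows moved by 2000 bp from the one-way summits held a core in 3.36% (interval 2.997 to 3.77), and windows on all one-way starts in 6.55% (interval 6.21 to 6.90).

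CpG-rich summits made up 61.7% of those at one-way starts (interval 60.2 to 63.1). The share was 77.0% in divergent pairs (interval 70.9 to 82.1), 18.8% at noncoding starts (interval 16.2 to 21.8) and 1.59% among distal summits (interval 1.43 to 1.76). The cores differed in the same direction: a CpG at positions 12 and 13 of the core was present in 1168 of 2084 cores at one-way starts (56.0%, interval 53.9 to 58.2) and in 28.3% of distal cores (interval 27.6 to 28.9). A core with no mismatch occurred in 3.67% of one-way summits (interval 3.13 to 4.28) and in 13.6% of distal ones (interval 13.1 to 14.1).

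Median strength was 209 at one-way starts, 143 in divergent pairs, 282 at noncoding starts and 243 among distal summits. Quartile ranges overlapped between all 4 classes. The one-way median was 0.861 times the distal one, and it was the lower on 17 of the 19 autosomes. With a core, however, the one-way median was 328 and the distal one 280, and without a core they were 137 and 140. Another summit lay within 2000 bp of 24.6% of one-way summits (interval 23.3 to 25.9) and of 12.5% of distal ones (interval 12.07 to 12.96). The summit base was soft-masked as a repeat in 5.93% of one-way summits (interval 5.25 to 6.69) and in 20.5% of distal ones (interval 19.9 to 21.0).

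**Figure D4:**
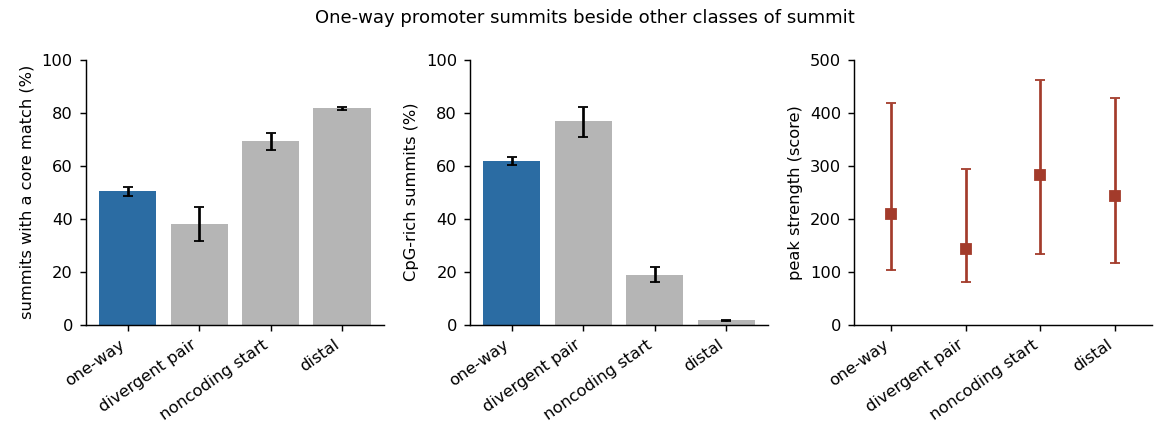
Share of summits with a core (%, left), share in CpG-rich sequence (%, middle), both as bars with 95% Wilson intervals, and strength (score, right; median as square, quartiles as bars) for one-way summits, divergent pairs, noncoding starts and distal summits. One-way summits lie between divergent pairs and noncoding starts in all 3 panels.

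Strength followed the fit to the consensus. The 152 one-way summits with no mismatch had a median of 506 (quartiles 418 and 565). With 1 mismatch the 703 summits had 412 (quartiles 210 and 521), and with 2 mismatches the 1229 had 256.3 (quartiles 125 and 440). The 1392 whose best match had 3 mismatches had a median of 150 (quartiles 88.4 and 308). They were 33.6% of all one-way summits (interval 32.1 to 35.02), and windows moved by 2000 bp had such a best match in 15.5% (interval 14.8 to 16.3). The remaining 617 with 4 and 54 with 5 or more mismatches had medians of 116 and 105.

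The 2063 one-way summits without a core were mostly in CpG-rich sequence. CpG-rich summits were 1495 of them (72.5%, interval 70.5 to 74.4) and 1062 of the 2084 with a core (51.0%, interval 48.8 to 53.1), a difference of 21.5 points (interval 18.6 to 24.4). In CpG-rich sequence the median strength was 355 with a core and 130 without, and elsewhere it was 305 and 155. Summits without a core lay upstream in 48.8% (interval 46.6 to 50.9) and those with one in 63.1% (interval 61.0 to 65.1). Median peak width in CpG-rich sequence was 316 bp with a core and 327 bp without, and elsewhere 299 bp and 283.5 bp.

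Short motifs of other promoter factors were counted on both strands within 50 bp of summits that lay within 200 bp of the start, and in the same window on all 19357 one-way starts. Of 10 motifs, GGGCGG, the GC box bound by SP factors, was the one whose share in summits without a core lay above that of all starts with an interval that excludes 0. It was present in 34.0% of these 1004 summits (interval 31.1 to 36.9) and in 27.4% of all starts (interval 26.7 to 28.0). Its share in the 883 summits with a core was 30.01% (interval 27.1 to 33.1). TATAAA, the TATA box, was present in 0.797% of summits without a core, 1.47% of those with one and 5.68% of all starts. CCAAT, the box bound by NF-Y, was present in 8.17%, 9.06% and 13.9%. For CCGGAAG (ETS factors), CGCATGCG (NRF1), AAGATGGCG (YY1), TGACGTCA (CRE) and CACGTG (E-box), the intervals of the difference between summits without a core and all starts included 0. TGANTCA (AP-1) and CATTCC (TEAD) were present in 0.797% and 2.69% of these summits and in 1.95% and 3.94% of all starts. The windows differ in place and base composition, and GGGCGG can overlap part of a CTCF core.

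The inputs compared by the reproducibility test gave a strength for each pool. For 4144 of the 4147 summits the first input was a peak, with its strength, of the candidates ranked for pool E, and for 4103 the second was one of those for pool F. Matches the other way round, of the first with F or the second with E, numbered 0. The first input had a median of 147 (range 17.2 to 376) and the second a median of 63.9 (range 6.72 to 301). The first was higher at 4140 of the 4147 summits, with a median log2 ratio of 1.04 (SD over summits 0.43). Distal summits had the same median ratio, 1.04 (SD 0.38), and the difference between the medians was -0.0020. The ratio was 0.91 (SD 0.42) for summits with a core and 1.14 (SD 0.41) for those without. It also moved with strength among distal summits, with 1.29 in the weakest 20% of the list and 0.58 in the strongest 20%. One-way summits had 1.25 and 0.52 in the same strength ranges. The values come from 1 merged alignment per pool, so they carry no replicate error and no test between pools was possible.

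The largest ratios of first to second input, 3.33, 2.57 and 2.57 on the log2 scale, were at Ap1m1 (67.8 and 6.72), Per2 (118 and 19.8) and Tex2 (146 and 24.5). Ap1m1 encodes a subunit of a clathrin adaptor and Per2 a repressor of the circadian clock. The smallest, -1.50, -1.41 and -1.32, were at Gm28557 (77.0 and 218), Ccdc59 (83.3 and 221) and Sh3rf3 (65.3 and 163). These 3 summits and Ap1m1 also overlapped peaks in the thresholded pool E list with strengths of 289, 254, 277 and 284, above their first inputs. With those strengths in place of the first inputs, the pool E value is the higher in all 4. Of the 6, the Tex2 summit alone had a core, and it had no mismatch. The 2 weakest summits, at Jdp2 (11.99) and Rora (12.1), had inputs of 50.4 and 18.98 and of 135 and 50.1, all above the strength in the list. Jdp2 is a repressor related to AP-1 and Rora a nuclear receptor that acts in the clock.

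A peak with a reciprocal overlap of at least 50% was present in both single-pool lists for 2294 of the 4147 summits (55.3%, interval 53.8 to 56.8). Distal summits had one in 59.6% (interval 58.9 to 60.2), a difference of 4.26 points (interval 2.61 to 5.91). This difference did not keep its sign across strength. In ranges of 20% of the list, weakest first, the distal share was 11.7%, 31.9%, 80.4%, 89.6% and 84.9%. The one-way share was 12.6%, 36.9%, 80.9%, 84.6% and 80.05%, higher in the weaker ranges and lower in the stronger ones. Over all 4147 summits, partners were more frequent in the pool E list (85.4%) than in the pool F list (62.3%). Summits with a core had a partner in both in 63.8% (interval 61.7 to 65.9) and those without in 46.7% (interval 44.6 to 48.9), a difference of -17.1 points for those without (interval -20.05 to -14.1). With a reciprocal overlap of 80% the share with a partner in both was 6.44%. Strong peaks can lack a partner: Hoxa7 and Srp9 had none in the pool E list although their first inputs were 376 and 365.

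The 15 strongest summits had first inputs from 362 to 376 and second inputs from 277 to 301. They were chosen by strength, so these narrow ranges are no measure of agreement between the pools. Of the 15 summits, 10 were upstream of the start, 13 had a core and 9 had a core in the direction of the gene. Hoxa7, which encodes a homeobox factor of axial patterning, was the strongest at 672, with its summit 27 bp inside the gene, in the 5′ UTR. Gins4, a subunit of a complex of the replication fork, followed at 664 with a summit at -217 bp. Srp9, a subunit of the signal recognition particle, had 656 at -87 bp, and Tfeb, a transcription factor of lysosome biogenesis, had 656 at +6 bp. Prmt3, an arginine methyltransferase, had 648 at -116 bp. Hsp90aa1, the inducible cytosolic HSP90 chaperone, had 648 at -387 bp, and Fitm2, a protein of lipid droplet formation, had 645 at -106 bp. Mrps16, a protein of the small mitochondrial ribosomal subunit, had 644 at +62 bp. Srrm3, a splicing factor known from neuronal microexons, had 644 at -99 bp. The others of the 15 were AI413582 (661), Erlin2 (656), Pafah2 (653), Ephb1 (652), Them6 (651) and Abca14 (647).

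Gene lists were then read against the share of all one-way starts with a summit, 20.5%, and with any ranked candidate, 45.7%. For 2 of the 26 lists the interval lay above 20.5%, for 4 it lay below and for 20 it held that share. The intervals were not adjusted for the number of lists. CpG-rich one-way starts had a summit in 32.2% and the others in 10.5%, and the lists were not matched for CpG content. The interval of the cytosolic ribosomal list holds 32.2%, and those of the keratin and liver lists hold 10.5%. Those of the protocadherin, olfactory receptor and vomeronasal receptor lists hold neither. The CpG-rich share of each list was not counted, so the part of CpG content in these shares was not tested. Taking the strongest summit at each one-way start that had one gave 3789 summits. They had a median strength of 227, a core in 51.6% (interval 50.03 to 53.2) and a place upstream in 57.2% (interval 55.6 to 58.8).

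Clustered protocadherins, the cell-surface proteins that give neurons their individual identity, had summits at 40 of 57 starts (70.2%, interval 57.3 to 80.5). These were weak and rarely fitted the core consensus: the median strength was 132 and 7 of the 40 had a core, while 36 lay upstream. The strongest were at Pcdhgc3 (376, inputs 246 and 127, at -48 bp) and Pcdhgb7 (286, inputs 181 and 103, at -66 bp). Pcdha1 had no summit within 1000 bp, and its nearest one was 23035 bp away. The genes share sequence, so their counts are not independent and reads may map to more than 1 of them.

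Cytosolic ribosomal protein genes had summits at 27 of 72 starts (37.5%, interval 27.2 to 49.0), with a median strength of 422. Of the 27 summits, 23 lay upstream and 15 had a core. Rpl26 (641, inputs 364 and 281, at -116 bp) and Rps3a1 (631, inputs 366 and 273, at -42 bp), of the large and the small subunit, had the strongest. A ranked candidate was present at 61 of the 72 starts (84.7%). Several lists whose summit interval held 20.5% also had a larger share of starts with a candidate than the 45.7% of all. The counts were 51 of 60 for mitochondrial ribosomal proteins, 20 of 23 for circadian clock genes, 42 of 52 for splicing factors, 20 of 25 for CTCF and cohesin genes, 30 of 41 for proteasome subunits and 41 of 60 for oxidative phosphorylation subunits. The summit nearest to Rpl10l, a relative of Rpl10, was 568946 bp from its start.

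Mitochondrial ribosomal proteins had summits at 17 of 60 starts (28.3%, interval 18.5 to 40.8), with a median of 432 and 13 of 17 upstream. Mrps16 and Mrpl17 (618 at -165 bp) had the strongest and Mrpl1 had none. Oxidative phosphorylation subunits had them at 14 of 60 (23.3%, interval 14.4 to 35.4), with a median of 518 and 13 of 14 upstream. The strongest there were the complex I subunits Ndufc1 (596 at -56 bp) and Ndufb7 (591 at -5 bp). The ATP synthase subunit Atp5a1 had none.

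The intervals of the proteasome, splicing, translation initiation, zinc finger, solute carrier, and CTCF and cohesin lists also held 20.5%. Proteasome subunits had summits at 11 of 41 starts (26.8%, interval 15.7 to 41.9), with Psmd6 (643) and Psmc4 (557) the strongest and none at Psma4. Splicing factors had them at 14 of 52 (26.9%, interval 16.8 to 40.3), led by Snrpe (578) and Sf3a3 (543), with none at Hnrnpa0. Translation initiation factors had them at 11 of 46 (23.9%, interval 13.9 to 37.9), led by Eif3g (618) and Eif3f (586), with none at Eif1. Numbered zinc finger genes had them at 85 of 363 (23.4%, interval 19.4 to 28.04), led by Zfp786 (586) and Zfp341 (567), with none at Zfp1. Solute carriers had them at 75 of 350 (21.4%, interval 17.5 to 26.03), led by Slc36a1 (629) and Slc2a4 (582), with none at Slc10a1. Genes of CTCF, cohesin and their regulators had them at 8 of 25 (32.0%, interval 17.2 to 51.6). Chd8 (596), a chromatin remodeller that binds CTCF, and Esco1 (584), which acetylates cohesin, had the strongest, and Ctcfl, the testis paralogue of CTCF, had none.

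The intervals of all 3 muscle lists held the 20.5% of all starts. The contractile apparatus had summits at 5 of 44 starts (11.4%, interval 4.95 to 24.0), with a median strength of 75.1. Tnnt3, fast skeletal troponin T, had 400 (inputs 263 and 135) at -839 bp, and Actn2, a Z-disc actinin, had 144 (inputs 94.4 and 47.5) at +510 bp. At Acta1, skeletal actin, the nearest summit was 1715 bp away. Muscle energy metabolism genes had them at 5 of 29 (17.2%, interval 7.60 to 34.5). Slc2a4, the insulin-responsive glucose transporter GLUT4, had 582 (inputs 342 and 239) at -898 bp, and Gys1, muscle glycogen synthase, had 508 (inputs 268 and 235) at -2 bp. Ckmt2, mitochondrial creatine kinase, had its nearest summit 5405 bp away. Ckm, the gene of cytosolic muscle creatine kinase, was not among the genes counted here and is named after its value was seen. Its summit had 619 (inputs 352 and 272) at +780 bp, with a core with no mismatch. Myogenic transcription factors and satellite cell genes had them at 7 of 24 (29.2%, interval 14.9 to 49.2). Myod1, a master regulator of the muscle lineage, had 373 (inputs 244 and 128) at +716 bp. Myog, the myogenin gene, had its nearest summit 1140 bp from the start, just outside the window, at a strength of 420. Circadian clock genes had them at 7 of 23 (30.4%, interval 15.6 to 50.9), of which 1 had a core. Ciart (434 at -993 bp) and Per2 (216 at -196 bp) were the strongest and Arntl, which encodes BMAL1, had none.

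The 4 lists with intervals below 20.5% were receptor, keratin and liver genes. For olfactory receptors it was 4 of 1087 starts (0.368%, interval 0.143 to 0.942), the strongest at Olfr557 (417) and Olfr556 (266). Vomeronasal receptors had one at 0 of 325, which allows up to 1.17%, and keratins at 1 of 49 (2.04%, interval 0.361 to 10.7), Krt222 (125). The liver list had 0 of 20, which allows up to 16.1%; Alb, the albumin gene, had its nearest summit 40043 bp away.

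Markers of other cell types had few starts each, and their intervals held 20.5%. Neuronal genes had 1 of 18, at Rbfox3 (68.8), and none at Gria1. Endothelial and mural genes had 2 of 21, at Myh11 (476) and Esam (260), immune genes 2 of 22, at Gata3 (135) and Kit (126), and nerve and Schwann genes 2 of 18, at Egr2 (561) and Erbb3 (407). Cdh5, Ptprc and Sox10 had none. Fibroblast and tendon genes had 7 of 22 (31.8%, interval 16.4 to 52.7), among them Col1a1 (513 at +928 bp), a chain of type I collagen, and Osr1 (442 at -40 bp), with none at Dcn.

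In the Hox clusters, where CTCF is known to separate chromatin domains, 8 of 39 starts had one (20.5%, interval 10.8 to 35.5), a share equal to the background. The 7 different summits involved had a median strength of 532, and 6 had a core. Hoxa7 and Hoxa5 (560, inputs 326 and 233, at -82 bp) had the strongest. Imprinted genes had them at 11 of 43 (25.6%, interval 14.9 to 40.2), led by H13 (611 at -73 bp) and Blcap (539 at -445 bp), with none at Nnat. Replication-dependent histone genes had them at 6 of 38 (15.8%, interval 7.44 to 30.4), led by Hist1h4j (517) and Hist1h4c (425), with none at Hist1h1a.

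**Figure D5:**
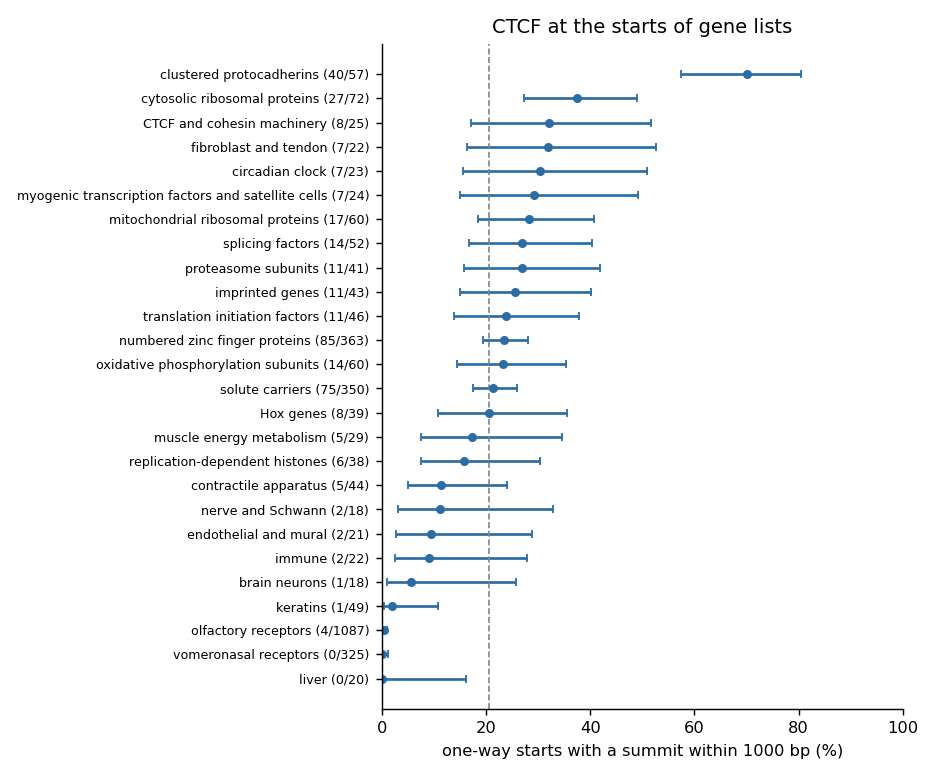
Share of one-way starts with a summit within 1000 bp (%, points, with 95% Wilson intervals as bars) for 26 gene lists, with counts in brackets; the dashed line is the 20.5% of all one-way starts. Clustered protocadherins at 70.2% and cytosolic ribosomal proteins at 37.5% lie above the line with their intervals.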

How the data were processed

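The members and the gene lists were chosen with earlier results of these data known. Per the labels and the notes deposited with the samples, peaks were on mm10, the technical replicates of each pool were merged, and both pools shared 1 control alignment. The aligner, peak caller and their versions are not given in the sources used here. The authors deposited a score for each peak (its strength) and, in the ranked list, a −log10 of the IDR. Of the deposited lists, the conservative list (42163 peaks) was the main one. Alternatives were the list combined from both pools (49649 peaks) and those of pool E (50899) and pool F (33784).

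Summits were placed by GENCODE M21 gene starts, and cores, GC and CpG were read from GRCm38, the assembly of mm10. Displaced windows lay 2000 bp to either side. Peaks were overlapped with bedtools 2.31.1; all else ran in Python with numpy, pandas, scipy and matplotlib, and was tested on simulated data with planted cores and known classes. Shares have 95% Wilson intervals and differences of shares have 95% Newcombe intervals; medians have quartiles and no test. No comparison across samples was possible, since every list merges the libraries of a pool.

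The genes named were those of the 15 strongest summits, the 2 strongest and the first without a summit in each list, and the 3 extremes of the input ratio at either end. The rule also took the 3 starts with most summits, the 3 strongest summits without a core and with an exact one, and the 2 weakest. Some items that this rule takes are not reported here. Peaks on chromosome X (1163) were left out. Alternatives covered the list, the window of 1000 bp, the pair distance, the mismatches allowed, the distance to the core, the CpG window and the overlap.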

Additional observations from a re-analysis of the deposited data

How the results depend on the processing

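No paired analysis was possible because every list merges the technical replicates of a pool; for the same reason no replicate could be left out, and the single-pool lists stand in for this. Of 113 recomputed values, 72 kept their direction and side of the threshold or stayed within the interval of the reported value. Keeping direction did not mean keeping size, and some of the 72 lay outside that interval. The alternatives for the 100 bp on either side of the start, for RefSeq starts and for strong candidates outside the list were chosen after seeing the data.

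The share of one-way starts with a summit was 24.8% with the combined list, 25.5% with the pool E list, 16.3% with the pool F list, 9.74% with the stronger 50%, 15.6% within 500 bp, 26.2% within 2000 bp and 21.6% for GENCODE starts within 50 bp of a RefSeq one. The share of summits with a core was, in the same order up to 2000 bp, 45.0%, 42.7%, 56.9%, 68.3%, 47.4% and 55.6%. It was 20.6% with at most 1 mismatch, 83.8% with at most 3, 44.5% with the core within 25 bp and 69.0% over all candidates at or above the median strength of the list. The core share of divergent minus one-way summits was -6.35 points in the stronger 50% and -6.84 points over those candidates, with intervals that include 0. The ratio of one-way to distal median strength was 0.767 (combined), 0.758 (pool E), 0.933 (pool F), 0.873 (500 bp), 0.893 (2000 bp) and 0.859 (pairs to 2000 bp apart). Partners in both pool lists were found for 79.4% in the stronger 50%, 71.7% with 1 bp of overlap and 6.44% with a reciprocal 80%. The difference in log2 input ratio was -0.057, -0.0018 and -0.0013 (stronger 50%, 500 bp, pairs to 2000 bp) and changed sign to 0.00043 at 2000 bp. The ratio of median strength before to after the start was 2.34 as reported. It was 2.505 (combined), 2.25 (pool E), 2.29 (pool F), 1.32 (stronger 50%), 2.34 (500 bp and 2000 bp), 2.33 (pairs to 2000 bp), 3.02 (RefSeq) and 1.33 (all those candidates). Some values counted among the 72 also changed in size. The share downstream of the start was 44.0% as reported, 32.8% (stronger 50%), 39.6% (pool F) and 47.8% (pool E). The CpG-rich share without minus with a core was 21.5 points as reported, 14.7 (500 bp), 14.1 (at most 3 mismatches) and 27.2 (2000 bp). The core share before minus after the start was 23.0 points as reported, 14.8 (at most 1 mismatch), 13.5 (at most 3) and 29.0 (RefSeq). The causes of these changes were not tested. The direction of cores in the 100 bp before the start stayed between 69.6% and 75.6% under 12 alternatives. The window of 2000 bp leaves the summits within 100 bp of the start the same. It could therefore not change the values given for them, and such values are counted among the 72. The window of 500 bp and pairs to 2000 bp apart changed this direction share little (72.9% and 73.3%).

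The depth is unknown, and pool E has more listed peaks than pool F. Strength has no stated scale. A missing summit can be a candidate that failed the IDR threshold: a ranked candidate was present at 45.7% of one-way starts. Gene starts are annotated, not measured in muscle.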

Other observations

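One-way candidates that failed the reproducibility threshold numbered 7480, with a median strength of 23.5 and a core in 14.5% (interval 13.7 to 15.3). Of the 80 strong ones, at 535.5 or above, 68 had a core (95% interval 75.6% to 91.2%), 68 lay upstream of the start and 42 of the 68 cores pointed in the direction of the gene (61.8%, interval 49.9 to 72.4). Among the 5 strongest, named after their values were seen, were Ccdc110 (706 at +309 bp, inputs 399 and 306, with no mismatch) and Comtd1 (698 at -70 bp, inputs 380 and 321). Distal candidates among the 100 strongest were in the list in 2 of 37 cases. Of the 26 genes named as first in their list without a summit, 6 had a ranked candidate within 1000 bp.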
